A study of Caenorhabditis elegans with 23 samples.

Results

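Worms carrying the gld-2(q497) allele were fed bacteria for an RNAi labelled caf-1 and were compared with worms of the same genotype fed the non-targeting control RNAi. The comparison holds 4 of the 23 libraries of the series, chosen by their labels and column names alone: 2 for caf-1 RNAi and 2 for control RNAi, all from sequencing run 2. Both groups, like the other RNAi groups of the series, share the gld-2 mutant background, the young adult stage and whole worms as the tissue. The remaining RNAi groups, with 2 libraries each, were labelled ccf-1, ccr-4, panl-2 and parn-1, and they enter here only as a contrast. One protocol text names N2 (wild-type) worms for the RNAi experiment while the strain label of these libraries is gld-2(q497), and the strain label was followed. The labels state neither the construct behind the caf-1 RNAi nor whether the replicates were separate cultures, so the p-values measure the spread between libraries, which may be technical.

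The poly(A) tail of an mRNA is lengthened by poly(A) polymerases and shortened by deadenylases, and in the germ line and the early embryo this balance sets which stored maternal mRNAs are translated. GLD-2 is the catalytic subunit of a cytoplasmic poly(A) polymerase that lengthens the tails of many oocyte mRNAs. CCR4-NOT is the main cytoplasmic deadenylase complex, and its catalytic subunits are a CCR4-type enzyme (CCR-4 in worms) and a CAF1-type enzyme (CCF-1 in worms). PAN2-PAN3, with PANL-2 as the worm PAN2, and PARN are further deadenylases. A loss of deadenylation on top of the loss of GLD-2 asks whether short tails depend on a given shortening enzyme.

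For each gene, PAT-seq (sequencing from the 3′ end of mRNAs through the poly(A) tail) gave the number of reads, the number of reads that carry a tail, and the mean tail length of those reads in nucleotides (nt). Totals were 5.8 and 5.51 M reads (megareads) in the caf-1 RNAi libraries (replicates 1 and 2, in this order throughout), against 8.61 and 2.2 M in the control RNAi libraries. Tailed reads made up 57.2% and 72.2% of reads under caf-1 RNAi, against 62.8% and 53.6% under control RNAi. Ribosomal RNA took 8.62% and 3.99% of reads in the caf-1 RNAi libraries, against 18.8% and 11.4% in the control RNAi libraries. These 2 measures of library make-up therefore differed among the 4 libraries, and caf-1 RNAi replicate 2 had the highest share of tailed reads and the lowest share of ribosomal RNA. Markers of germ line and muscle were found in all 4 libraries, and the summed level of 49 sperm genes was 652 and 245 CPM (read counts scaled to library size) under caf-1 RNAi against 638 and 623 CPM under control RNAi. Muscle genes (28 rows) summed to 6617 and 6405 CPM under caf-1 RNAi, against 7082 and 6475 CPM under control RNAi. Oocyte and maternal genes (28 rows) summed to 3627 and 3821 CPM under caf-1 RNAi, against 4519 and 3876 CPM under control RNAi. Lower RNA from a tissue and fewer cells of it cannot be told apart in such bulk libraries.

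The spread between replicates was measured gene by gene. The median gene differed by 0.457 on the log2 CPM scale between the 2 caf-1 RNAi libraries and by 0.404 between the 2 control RNAi libraries, while the group means differed by a median of 0.258. For tails the median gap was 3.93 nt within caf-1 RNAi and 3.86 nt within control RNAi, and 2.36 nt between the group means. A gap between single libraries is larger than a gap between means of 2 libraries even without any change, so these values describe the spread and are no test. As a description over 9908 genes, the ranks of expression in caf-1 RNAi replicate 1 were closer to those of control RNAi replicate 1 (Spearman rho 0.974) than to those of caf-1 RNAi replicate 2 (0.937). Across tails of 6785 genes the same 2 values were 0.804 and 0.747 (Pearson r).

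The level of the RNAi targets was read first, and positions of genes are those of the deposited tables (build ce10, per the submitters' processing notes). No row of the tables is named caf-1, by its own name or by a symbol or synonym of the reference table, so the target of the caf-1 RNAi was not measured under that name. The gene ccf-1 (chromosome III, 11919089 to 11920120), which encodes the CAF1-type deadenylase of the worm, had 83.8 and 84.9 CPM in the caf-1 RNAi libraries, against 94.0 and 74.8 CPM in the control RNAi libraries. The 2 groups overlapped, and the log2 difference was -0.01 ± 0.22 (SE; 95% interval -0.49 to 0.48; edgeR adjusted p = 0.9997). In the ccf-1 RNAi libraries themselves the ccf-1 level was 73.8 and 66.8 CPM, just below the lower control RNAi value. A near-unchanged level therefore does not tell whether caf-1 RNAi reached ccf-1. The tail of the ccf-1 mRNA was 46.7 and 49.8 nt under caf-1 RNAi, against 46.0 and 40.9 nt under control RNAi, a difference of 4.75 ± 3.76 nt that did not pass the test (limma adjusted p = 0.9994).

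None of the other deadenylase genes targeted in the series passed the test under caf-1 RNAi. The gene ccr-4 had 11.1 and 9.54 CPM in the caf-1 RNAi libraries, against 5.37 and 26.2 CPM in the control RNAi libraries, whose values lay on both sides. For panl-2 the levels were 16.16 and 29.6 CPM under caf-1 RNAi, against 17.1 and 15.0 CPM under control RNAi. The gene parn-1 had 20.7 and 13.7 CPM under caf-1 RNAi, against 12.9 and 13.1 CPM under control RNAi (log2 difference 0.40 ± 0.36, 95% interval -0.38 to 1.19). Under its own RNAi each of these rows stood higher. The levels there were 902 and 1057 CPM for ccr-4, 143 and 1443 CPM for panl-2 and 88.3 and 43.8 CPM for parn-1. In ccf-1 RNAi replicate 2, panl-2 stood at 67.9 CPM. The source of such reads was not tested, so these levels may not be those of the endogenous mRNA alone. Reads of gld-2 itself were few in both groups, with 2.81 and 5.95 CPM under caf-1 RNAi against 3.96 and 6.54 CPM under control RNAi.

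The median tail of a library was slightly longer on average under caf-1 RNAi than under control RNAi. The groups overlapped, and the libraries were too few to bound the difference. Over the 6785 genes with a tail length in all 12 RNAi libraries, the median tail was 35.4 and 32.6 nt in the caf-1 RNAi libraries, against 33.8 and 32.1 nt in the control RNAi libraries. The group means were 34.0 ± 1.99 nt for caf-1 RNAi and 33.0 ± 1.24 nt for control RNAi (SD, n = 2 each), a difference of 1.04 nt (exact two-sided permutation p = 0.667, with 0.333 the lowest p possible for 2 against 2 libraries). Without caf-1 RNAi replicate 1 the difference was -0.37 nt, and without replicate 2 it was 2.44 nt. Replicate 1 had the longer median in every RNAi group except ccf-1, so leaving out 1 library also unbalances the replicate numbers. Each caf-1 RNAi library lay above the control RNAi library of the same number. List medians given below without 1 library share this limit. The ccf-1 RNAi libraries, with 38.1 and 38.8 nt, lay above both caf-1 RNAi libraries.

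**Figure D1:**
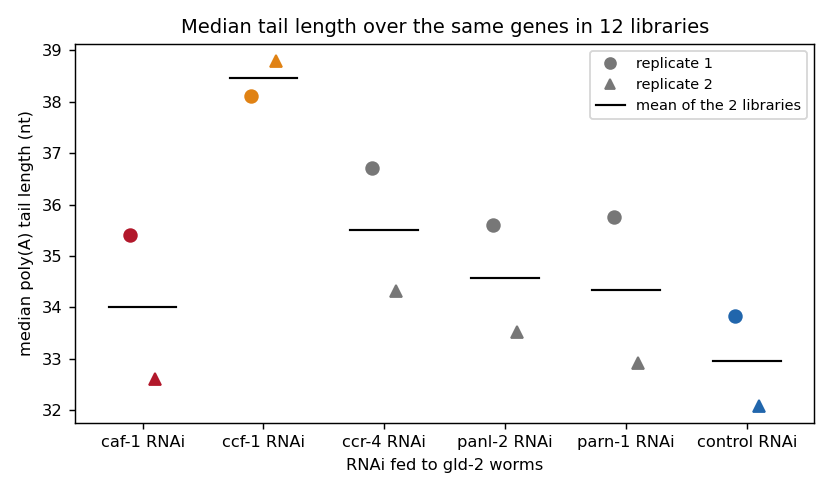
Median poly(A) tail length in nt of each library, over the same 6785 genes, by RNAi group in gld-2 worms; circles and triangles are replicates 1 and 2 and bars are group means. The caf-1 RNAi libraries, at 35.4 and 32.6 nt, overlap the control RNAi libraries at 33.8 and 32.1 nt, and the ccf-1 RNAi libraries stand at 38.1 and 38.8 nt.

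A mean that weights every tailed read equally gave another picture. It was 29.8 and 30.5 nt under caf-1 RNAi, against 26.6 and 27.0 nt under control RNAi, so the groups did not overlap (difference 3.34 nt, exact permutation p = 0.333). Reads of ribosomal RNA carried tails of 15.8 to 16.0 nt in these libraries, and their share was lower in both caf-1 RNAi libraries, as given above; its part in the difference was not tested. Outside ribosomal RNA the mean was 32.0 and 31.3 nt under caf-1 RNAi, against 30.9 and 29.6 nt under control RNAi, with a difference of 1.41 nt (exact permutation p = 0.333).

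No single mRNA had a tail length that passed the test between caf-1 RNAi and control RNAi. Of 6687 genes tested with limma, 0 (0%) had an adjusted p under 0.05, and the smallest adjusted p was 0.801. At an unadjusted p under 0.05 there were 288 genes (4.31%), 194 with longer tails under caf-1 RNAi (2.9%) and 94 with shorter tails (1.41%). With no gene differing, a fraction of about 0.05 would pass this threshold, so the count of 288 is no evidence of a change. The median difference over all genes was 0.81 nt, and 60.9% of genes had a positive one. Both caf-1 RNAi values lay above both control RNAi values in 18.5% of genes and below them in 9.02%. The median 95% interval reached 8.28 nt to either side, so differences of a few nt were not detectable for a typical gene. With caf-1 RNAi replicate 1 left out, the median was -0.43 nt and the test passed 6 longer and 1 shorter genes on the 1 remaining library, whose spread is then taken from the other groups.

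The longer tails named here were the largest among genes at an unadjusted p under 0.05 whose groups did not overlap, with at least 50 tailed reads in each of the 4 libraries and the same direction in every left-out fit, and none passed the adjusted test (limma adjusted p = 0.9994 for each). The largest difference, 17.0 ± 5.63 nt, belonged to ada-2 (II, 7252521 to 7255475), which encodes a transcriptional adaptor of histone acetyltransferase complexes. Its tail was 55.0 and 49.4 nt under caf-1 RNAi, against 44.8 and 25.5 nt under control RNAi, so a control library far below the other 3 carried most of the gap. For cul-1 (III, 10471141 to 10474787), the cullin scaffold of SCF ubiquitin ligases, tails were 26.3 and 39.6 nt under caf-1 RNAi, against 23.1 and 21.05 nt under control RNAi (10.9 ± 4.06 nt). Here caf-1 RNAi replicate 2 stood apart from the other 3 libraries.

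Next by size came lst-1 (I, 10588291 to 10590069), a gene that keeps germline stem cells undifferentiated downstream of Notch signalling. Its tails were 35.0 and 40.8 nt in the caf-1 RNAi libraries, against 30.8 and 24.5 nt in the control RNAi libraries (10.2 ± 3.47 nt, 95% interval 2.51 to 18.0 nt). The remaining 7 genes differed by 4.84 to 7.52 nt. They were the cyclin Y gene cyy-1, the prion-like Q/N-rich gene pqn-59, the DnaJ chaperone gene dnj-23, the nuclear RNAi gene nrde-2, the Ariadne-type ubiquitin ligase gene ari-1, the collagen gene col-81 and the aspartyl protease gene asp-10. The most even of them was asp-10 (V, 12742053 to 12744090), at 4.84 ± 2.07 nt. It had tails of 26.8 and 27.5 nt under caf-1 RNAi, against 22.1 and 22.6 nt under control RNAi. Against the mean of the other target RNAi groups, tails under caf-1 RNAi differed by -1.82 nt for lst-1 and -4.22 nt for col-81. For the other named longer genes, ada-2 and cul-1 included, that difference ran from 0.39 nt (dnj-23) to 7.37 nt (cul-1), and none passed the adjusted test.

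For shorter tails 2 genes met the same rule, including its minimum of 50 tailed reads in each library. The tail of fzr-1 (II, 9640936 to 9644365), an activator of the anaphase-promoting complex, was 27.45 and 30.6 nt under caf-1 RNAi, against 36.3 and 35.4 nt under control RNAi (-6.81 ± 2.56 nt, 95% interval -12.5 to -1.10 nt). These values rest on 137 and 203 tailed reads under caf-1 RNAi and on 221 and 53 under control RNAi. For tat-4 (II, 6234556 to 6244202), a phospholipid-transporting ATPase, tails were 24.0 and 22.1 nt under caf-1 RNAi, against 26.8 and 30.0 nt under control RNAi (-5.38 ± 1.96 nt). Both caf-1 RNAi values of each gene lay below the ccf-1 RNAi values, which were 38.1 and 39.35 nt for fzr-1 and 28.1 and 30.05 nt for tat-4.

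No difference in tail length of the 10 maternal mRNAs of the oocyte passed the test. The mRNA of mex-5, a zinc-finger protein that polarises the zygote, had tails of 24.8 and 28.6 nt under caf-1 RNAi, against 25.65 and 25.06 nt under control RNAi. Its relative mex-6 had 20.6 and 21.7 nt under caf-1 RNAi, against 19.2 and 20.3 nt under control RNAi. In neither was the gap larger than a few nt, and the 95% intervals of the differences ran from -4.75 to 7.39 nt for mex-5 and from -3.30 to 6.04 nt for mex-6.

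Tails of pos-1, which encodes an RNA-binding protein of the posterior blastomeres, were 21.4 and 28.4 nt under caf-1 RNAi, against 23.3 and 27.2 nt under control RNAi. The PUF-family repressor gene puf-3 had 22.5 and 22.7 nt under caf-1 RNAi, against 21.2 and 22.7 nt under control RNAi. The nanos homologue nos-2, a germ cell determinant, had 22.1 and 22.2 nt under caf-1 RNAi, against 21.5 and 22.7 nt under control RNAi. Its difference of 0.01 ± 1.66 nt had the narrowest interval of the 10 maternal mRNAs, from -3.69 to 3.71 nt.

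Of the oocyte maturation factors, oma-1 had 25.9 and 27.8 nt under caf-1 RNAi, against 24.9 and 25.8 nt under control RNAi. The paralogue oma-2 showed the widest gap of the 10, with 26.7 and 31.2 nt under caf-1 RNAi, against 22.2 and 25.0 nt under control RNAi (5.34 ± 3.23 nt, 95% interval -1.88 to 12.56 nt; limma adjusted p = 0.9994). The translational repressor gene gld-1 had 33.0 and 37.1 nt under caf-1 RNAi, against 32.9 and 33.8 nt under control RNAi. The eggshell chitin-binding gene cbd-1 had 18.7 and 20.2 nt under caf-1 RNAi, against 18.7 and 19.3 nt under control RNAi. The cyclin B3 gene cyb-3 had 31.2 and 32.3 nt under caf-1 RNAi, against 31.7 and 27.0 nt under control RNAi. None of the 10 passed the test, and read levels of these mRNAs did not pass it either, with log2 differences between -0.34 (puf-3) and 0.16 (nos-2).

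**Figure D2:**
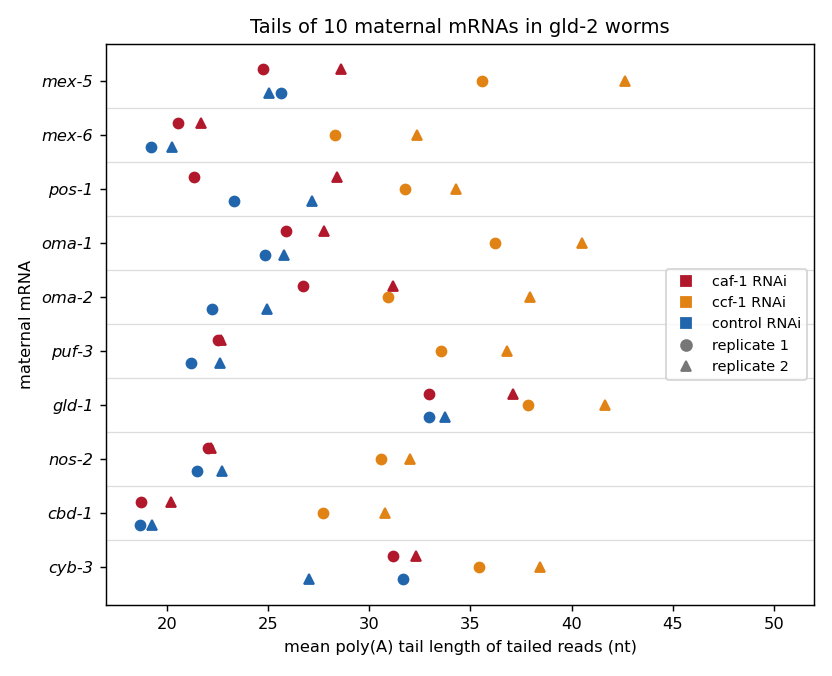
Mean poly(A) tail length in nt of 10 maternal mRNAs, with 1 point per library (circles replicate 1, triangles replicate 2) for caf-1 RNAi, ccf-1 RNAi and control RNAi in gld-2 worms. The caf-1 RNAi points of puf-3, at 22.5 and 22.7 nt, lie among the control RNAi points at 21.2 and 22.7 nt and below the ccf-1 RNAi points at 33.6 and 36.8 nt.

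No member of any of the 21 gene lists passed the adjusted limma test for tail length, and list medians are set here beside the 0.81 nt of all genes tested, of which 60.9% were positive and 2.9% longer at an unadjusted p under 0.05. The highest list median was that of 26 meiotic prophase genes, at 3.49 nt, where 22 members had a positive difference. Its member with the smallest p was chk-2, a meiotic checkpoint kinase gene, with 41.8 and 34.2 nt under caf-1 RNAi, against 30.4 and 28.4 nt under control RNAi (8.58 ± 3.49 nt, 95% interval 0.784 to 16.37 nt). Sperm genes had a median of 2.59 nt over 30 members, with 25 positive and 4 longer at an unadjusted p under 0.05. Of these, the major sperm protein genes msp-78, msp-65 and msp-142 belong to a family of near-identical copies whose reads may be split, and nspd-1 also belongs to a multigene family, so their single values are uncertain.

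For oocyte and maternal genes the median was 1.28 nt, and 23 of 26 were positive. Their median tail was 25.5 and 27.1 nt under caf-1 RNAi, against 24.8 and 24.9 nt under control RNAi. Eggshell genes had a median of 1.64 nt over 13 members, 2 of them longer at an unadjusted p under 0.05. These were egg-5, a pseudophosphatase gene of egg activation (24.0 and 25.96 nt under caf-1 RNAi, against 20.6 and 18.5 nt under control RNAi), and gna-2, which makes a precursor of chitin (32.6 and 26.9 nt under caf-1 RNAi, against 24.7 and 19.0 nt under control RNAi). The 57 ribosomal protein genes lay at a median of 1.16 nt, 50 of them positive. The medians of these 5 lists stayed positive under every alternative in nt. Their lowest values on lengths centred per library were 0.12 nt for ribosomal proteins, 0.25 nt for oocyte genes and 0.60 nt for eggshell genes. Under other settings they were 1.32 and 1.53 nt for meiotic and sperm genes. The medians of P granule genes, poly(A) polymerases and partners, polarity and division genes, and GLD-2-dependent tails also stayed positive, so this does not set the 5 lists apart.

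Poly(A) polymerases, their partners and the CPEB family had a median of 1.72 nt over 24 members. The symplekin gene symk-1 of the cleavage machinery had 43.2 and 32.7 nt under caf-1 RNAi, against 31.9 and 25.5 nt under control RNAi (9.26 ± 4.11 nt). Decapping and decay genes had a median of 1.68 nt over 26 members, which was -0.07 nt without caf-1 RNAi replicate 1. One member, the translation initiation factor gene ife-5 (eIF4E family), had shorter tails, with 36.1 and 27.9 nt under caf-1 RNAi, against 43.1 and 47.9 nt under control RNAi (-13.5 ± 4.05 nt, 95% interval -22.5 to -4.46 nt). Those values of ife-5 rest on 18 and 64 tailed reads under caf-1 RNAi and on 38 and 15 under control RNAi. The 13 deadenylase and CCR4-NOT genes had a median of 0.35 nt and 0 members at an unadjusted p under 0.05, and the median was -1.85 nt without caf-1 RNAi replicate 1.

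Muscle genes had a median of -0.15 nt over 27 members, neurons 0.12 nt over 25, intestine 0.40 nt over 27, somatic gonad 0.38 nt over 11 and cuticle collagens 1.10 nt over 37. Outside single tissues, histones had a median of 1.62 nt and the proteasome 1.11 nt, and P granule genes of the germ line had 1.59 nt, which was 0.05 nt without caf-1 RNAi replicate 1. The collagen median was -0.30 nt without control RNAi replicate 1. Without caf-1 RNAi replicate 1 the medians of muscle, neuron and intestine genes were -2.41, -1.34 and -1.22 nt, and without replicate 2 they were 1.66, 0.72 and 2.02 nt. Within the neuron list, the neuropeptide precursor genes nlp-15 and flp-5 had the smallest p, on few tailed reads: nlp-15 had 36 and 22 under caf-1 RNAi against 32 and 9 under control RNAi, and flp-5 had 37 and 31 under caf-1 RNAi against 52 and 12 under control RNAi. Tails of nlp-15 were 26.6 and 28.7 nt under caf-1 RNAi, against 37.6 and 41.9 nt under control RNAi (-12.07 ± 2.80 nt, 95% interval -18.3 to -5.82 nt). Those of flp-5 were 31.2 and 28.9 nt under caf-1 RNAi, against 35.8 and 46.2 nt under control RNAi. The integrin gene pat-3 of the muscle list had 22.9 and 19.7 nt under caf-1 RNAi, against 24.1 and 28.7 nt under control RNAi, the last value from 35 tailed reads.

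A further list held 635 mRNAs whose tails were shorter in gld-2 than in N2 worms in run 1 (of 7958 tested, limma adjusted p under 0.05), from libraries that are not part of the RNAi comparison. Under caf-1 RNAi, 612 of them were tested, 0 passed the adjusted test in either direction, and 14 were longer and 1 shorter at an unadjusted p under 0.05, beside 2.9% longer and 1.41% shorter over all genes. Their median difference was 1.17 nt, beside 0.81 nt for all genes, and 444 were positive. Their median tail was 28.5 and 27.3 nt under caf-1 RNAi, against 27.2 and 26.1 nt under control RNAi. The lower caf-1 RNAi value lay just above the higher control RNAi value. In the ccf-1 RNAi libraries the same genes stood at 34.2 and 37.4 nt.

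Genes were also divided into 4 bins of equal size by their tail length in gld-2 worms of run 1. In the bin with the shortest tails (9.9 to 30 nt, 1665 genes) the median difference was 1.01 nt, with 72 longer and 14 shorter at an unadjusted p under 0.05. The next bins had medians of 0.72 and 0.53 nt, and the bin with the longest tails 0.99 nt with 52 longer and 31 shorter. The bins thus had medians close to each other, and no bin held a gene past the adjusted test.

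Read levels did not pass the test for any gene either. Of 9908 genes tested with edgeR, 0 (0%) had an adjusted p under 0.05 between caf-1 RNAi and control RNAi, and DESeq2 also called 0. At an unadjusted p under 0.05 there were 228 genes by edgeR (2.3%) and 202 by DESeq2. With no gene differing, a fraction of about 0.05 would pass this threshold, so neither count is evidence of a change. By edgeR 161 were higher under caf-1 RNAi (1.62%) and 67 lower (0.676%). The median log2 difference of all genes was -0.01, the groups did not overlap in 12.5% of genes on the higher side and 12.9% on the lower side, and the median 95% interval reached 0.94 on the log2 scale to either side. With caf-1 RNAi replicate 1 left out, edgeR called 3 genes higher and 2 lower from the 1 remaining caf-1 RNAi library. Of the 161 higher genes, 145 had more CPM in caf-1 RNAi replicate 2 than in replicate 1. Replicate 2 is the library with the highest tailed share and the lowest ribosomal RNA share, and the part of these in the counts was not tested.

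The genes with the largest higher levels were picked by the same rule, with a minimum of 20 CPM in the higher group in place of tailed reads, and none passed the adjusted test (edgeR adjusted p = 0.9997 for each). The saposin-like gene spp-2 (X, 7316051 to 7316697) had 10.5 and 40.8 CPM under caf-1 RNAi, against 6.65 and 8.41 CPM under control RNAi, a log2 difference of 1.80 ± 0.54. Next came the transthyretin-related gene ttr-25 (V, 18556761 to 18557994), with 33.0 and 92.65 CPM under caf-1 RNAi, against 29.3 and 22.4 CPM under control RNAi (1.27 ± 0.50). The mitochondrial ribosomal protein gene mrpl-24 (I, 5505552 to 5507026) stood at 18.4 and 56.3 CPM under caf-1 RNAi, against 15.3 and 15.9 CPM under control RNAi (1.27 ± 0.43). For mrps-33, of the same kind (IV, 8739582 to 8740013) the levels were 30.6 and 77.6 CPM under caf-1 RNAi, against 21.5 and 25.23 CPM under control RNAi (1.22 ± 0.41). In all 10 named genes caf-1 RNAi replicate 2 was above replicate 1, and in most of them replicate 1 lay close to the control RNAi libraries.

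The mitochondrial import chaperone gene tin-9.1 (IV, 7043924 to 7044591) had 53.9 and 99.7 CPM under caf-1 RNAi, against 38.7 and 33.2 CPM under control RNAi (1.09 ± 0.31). The mitochondrial thioredoxin gene trx-2 (V, 10314646 to 10315185) had 25.3 and 40.5 CPM under caf-1 RNAi, against 15.7 and 14.5 CPM under control RNAi (1.12 ± 0.38). Here both caf-1 RNAi libraries stood clear of the control RNAi libraries. The other 4 genes differed by 1.05 to 1.14 on the log2 scale and were the transthyretin-related gene ttr-48, the kinetochore gene rod-1, the Mediator subunit gene mdt-18 and the nematode-specific peptide gene nspc-20. The smallest unadjusted edgeR p among the 10 was 0.0047 (tin-9.1).

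The lower genes were led by the collagen gene col-81 (II, 11012435 to 11013701), with 25.3 and 21.7 CPM under caf-1 RNAi, against 47.2 and 69.2 CPM under control RNAi (-1.30 ± 0.36, 95% interval -2.08 to -0.52). The collagen gene col-159 (V, 13198312 to 13199301) had 128 and 75.6 CPM under caf-1 RNAi, against 233 and 139 CPM under control RNAi, and col-139 (V, 4652896 to 4653944) had 143 and 81.2 CPM under caf-1 RNAi, against 168 and 214 CPM under control RNAi. For col-81 the caf-1 RNAi libraries were close to each other, while for col-159 and col-139 the lower of them was replicate 2.

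The cytosolic aconitase gene aco-1 (X, 11339812 to 11343098) had 34.1 and 32.8 CPM under caf-1 RNAi, against 58.3 and 47.7 CPM under control RNAi (-0.67 ± 0.23). The haem-responsive gene hrg-1 (X, 4008214 to 4008951) had 27.1 and 28.1 CPM under caf-1 RNAi, against 41.0 and 42.1 CPM under control RNAi (-0.59 ± 0.25). The gene fipp-1 (V, 4371889 to 4373638), whose product binds poly(A) polymerase, had 39.35 and 30.8 CPM under caf-1 RNAi, against 51.2 and 56.1 CPM under control RNAi (-0.61 ± 0.23). The remaining 4 were the nematode-specific peptide gene nspa-8, the aspartyl protease gene asp-14, the troponin T gene tnt-3 and the actin-binding gene cas-1. Their log2 differences lay between -0.92 and -0.62. Against the mean of the other target RNAi groups, the named lower genes differed by -0.86 (asp-14) to -0.14 (col-159 and hrg-1), with -0.24 for aco-1.

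**Figure D3:**
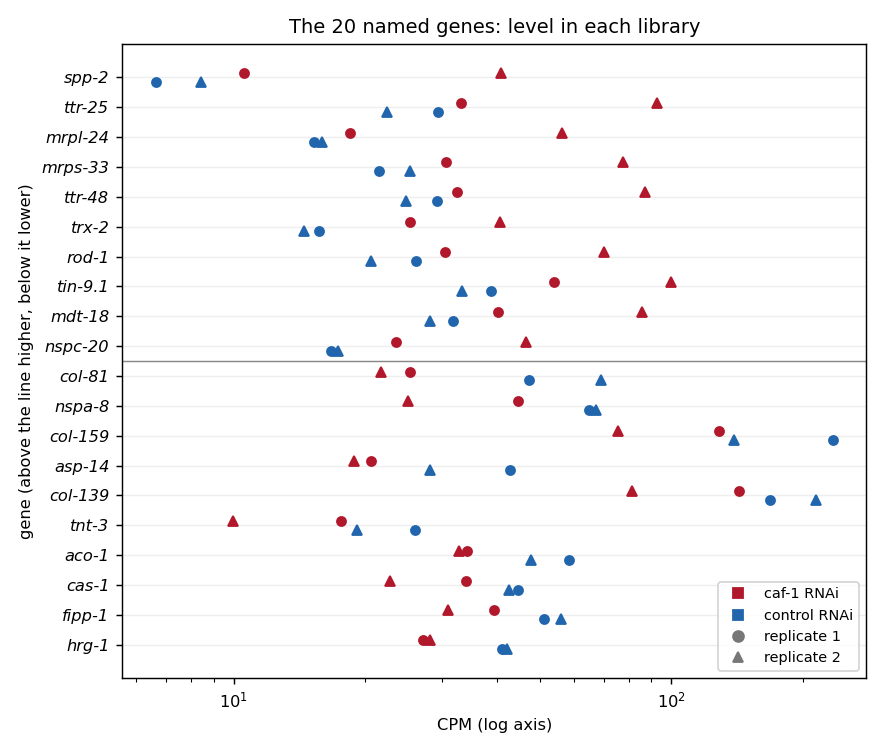
Level in CPM (log axis) of the 20 named genes in each caf-1 RNAi and control RNAi library, circles replicate 1 and triangles replicate 2; genes above the line had higher and genes below it lower group means under caf-1 RNAi, and none passed the adjusted test. In spp-2, caf-1 RNAi replicate 2 stands at 40.8 CPM and replicate 1 at 10.5 CPM, next to the control RNAi libraries at 6.65 and 8.41 CPM.

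List medians of expression ran from -0.47 (sperm) to 0.21 (meiotic prophase), and 0 members of the 21 lists passed the adjusted edgeR test. They are set here beside the median of -0.01 of all genes, of which 49.1% were positive. Over all genes 1.62% were higher and 0.676% lower at an unadjusted p under 0.05. Cuticle collagens had a median of -0.45 on the log2 scale over 61 genes, with 9 positive and 5 lower at an unadjusted p under 0.05, and that median stayed below 0 under every alternative, between -1.03 without caf-1 RNAi replicate 1 and -0.14 without control RNAi replicate 1. Collagen rows summed to 55740.0 and 32030.0 CPM under caf-1 RNAi, against 70940.0 and 48170.0 CPM under control RNAi. The libraries of the 2 groups thus interleaved, while each caf-1 RNAi library lay below the control RNAi library of the same replicate number. Replicate 1 had the higher sum in every RNAi group except panl-2. Sperm genes had a median of -0.47 over 42 genes that rested on 1 library, with 0.13 without caf-1 RNAi replicate 2 and -1.49 without replicate 1. The 57 ribosomal protein genes lay at a median of -0.27, which was 0.06 without caf-1 RNAi replicate 2.

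Meiotic prophase genes had the highest median, 0.21 over 27 genes with 20 positive, beside 49.1% positive over all genes. That median was -0.01 without caf-1 RNAi replicate 2. For oocyte and maternal genes the median was -0.16, and 6 of 28 were positive. Among them the PUF-family gene fbf-1, which keeps germline stem cells, had 9.31 and 9.96 CPM under caf-1 RNAi, against 5.66 and 6.08 CPM under control RNAi (0.73 ± 0.31 on the log2 scale). Its relative puf-5 had 116 and 146 CPM under caf-1 RNAi, against 178 and 229 CPM under control RNAi, and the 95% interval of the difference, -1.28 to 0.01, just reached 0. The eggshell precursor gene gna-2 had 15.3 and 16.3 CPM under caf-1 RNAi, against 20.9 and 26.2 CPM under control RNAi.

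The 14 deadenylase and CCR4-NOT genes had a median of -0.01 with 1 lower at an unadjusted p under 0.05, beside 0.676% of all genes. That member was nhl-2, listed as a cofactor of repression and not itself a deadenylase, at 0.527 and 0.691 CPM under caf-1 RNAi, against 2.12 and 2.34 CPM under control RNAi. Decapping and decay genes had a median of 0.05 over 30 genes and 0 at an unadjusted p under 0.05. Vitellogenins, the yolk proteins made in the intestine, had a median of -0.22 with 0 of 5 positive, and the median was 0.09 on tailed reads only and -0.37 without caf-1 RNAi replicate 1. Lists of intestine, muscle, neurons, somatic gonad, heat shock, immunity, histones and the proteasome had medians between -0.06 and 0.13, and each of these took both signs when single settings or libraries were altered.

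**Figure D4:**
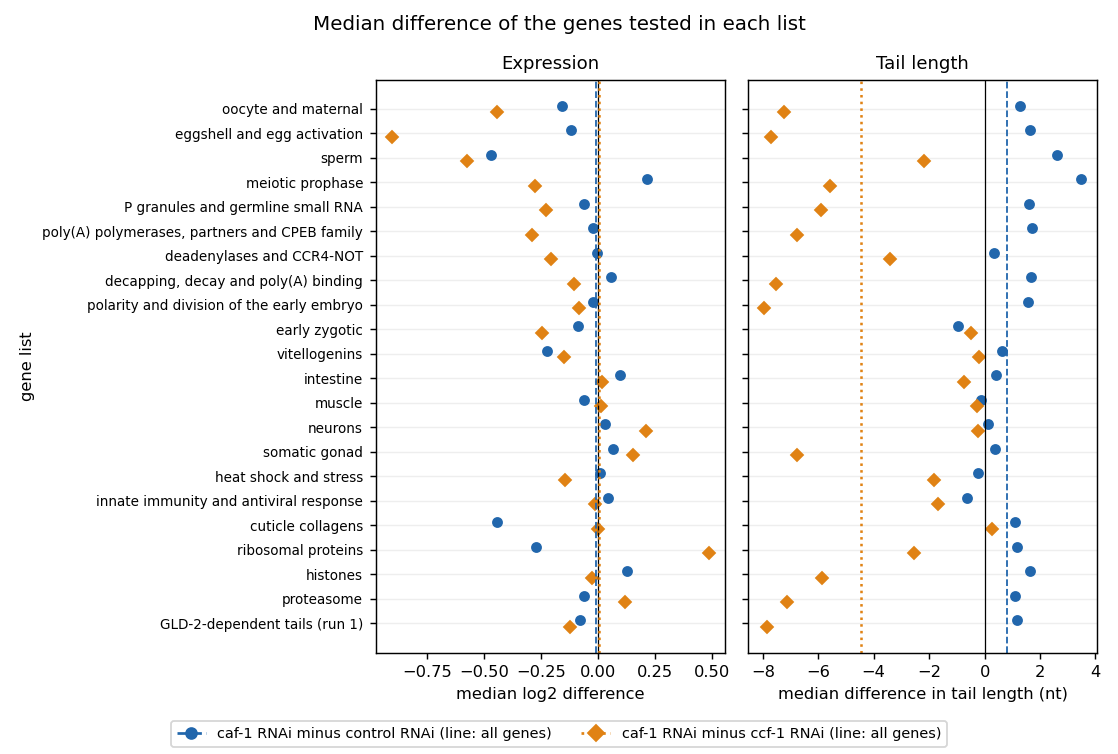
Median difference of the tested genes of each list in expression (log2, left) and tail length (nt, right), for caf-1 RNAi minus control RNAi (circles) and caf-1 RNAi minus ccf-1 RNAi (diamonds); dashed and dotted lines are the medians of all genes tested in the same comparisons. Against control RNAi the tail medians lie between -0.98 nt (early zygotic genes) and 3.49 nt (meiotic prophase); against ccf-1 RNAi the oocyte list stands at -7.23 nt and the muscle list at -0.27 nt.

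The ccf-1 RNAi libraries target the CAF1-type deadenylase of the worm, and caf-1 RNAi was set against them directly. This choice follows the names and not the data, since tails of caf-1 RNAi replicate 1 correlated less with the ccf-1 RNAi libraries (Pearson r 0.705 and 0.69) than with parn-1 RNAi replicate 2 (0.826). Tails were shorter under caf-1 RNAi than under ccf-1 RNAi across many genes. Of 7015 genes tested, limma called 81 shorter under caf-1 RNAi and 0 longer (1.15%), and at an unadjusted p under 0.05 there were 1721 shorter (24.5%) and 56 longer (0.798%). The median difference over all genes was -4.45 nt, and the library medians of 35.4 and 32.6 nt under caf-1 RNAi against 38.1 and 38.8 nt under ccf-1 RNAi did not overlap. The count of 81 is not firm, since the smallest adjusted p was 0.04997, just under the threshold of 0.05. Without caf-1 RNAi replicate 1 the test passed 0 shorter and 4 longer genes, and without caf-1 RNAi replicate 2, ccf-1 RNAi replicate 1 or ccf-1 RNAi replicate 2 it passed 0. On lengths centred per library 0 genes passed, while weights by tailed reads gave 842 shorter and 2 longer.

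**Figure D5:**
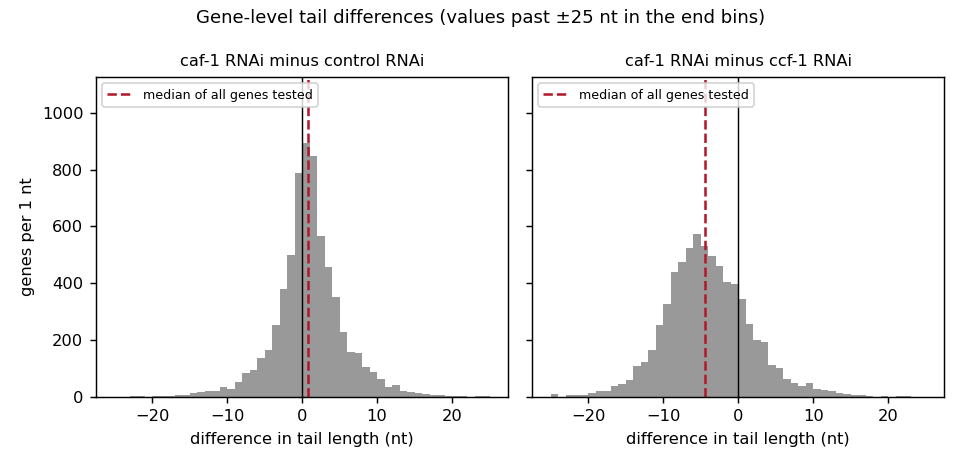
Number of genes by difference in mean tail length (nt, bins of 1 nt) for caf-1 RNAi minus control RNAi (6687 genes, left) and caf-1 RNAi minus ccf-1 RNAi (7015 genes, right); the dashed line is the median. The median is 0.81 nt on the left and -4.45 nt on the right.

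The genes described for this contrast are the 10 with the most negative difference and the maternal mRNAs, and this choice was made after their values were seen. The caspase gene ced-3 (IV, 13199206 to 13204042) had tails of 31.2 and 31.3 nt under caf-1 RNAi, against 48.6 and 48.6 nt under ccf-1 RNAi (-17.3 ± 2.74 nt, limma adjusted p = 0.04997). The gene mat-1, a subunit of the anaphase-promoting complex, had 29.35 and 30.0 nt under caf-1 RNAi, against 46.65 and 46.3 nt under ccf-1 RNAi. The kinetochore gene ndc-80 had 24.9 and 26.6 nt under caf-1 RNAi, against 39.5 and 40.5 nt under ccf-1 RNAi (-14.2 ± 2.04 nt). In each of them the control RNAi libraries, with 32.5 and 28.7 nt for ced-3, 32.5 and 27.6 nt for mat-1 and 23.6 and 26.6 nt for ndc-80, lay close to caf-1 RNAi.

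Others among the 10 largest were the actin regulator wve-1, the polarity gene spat-1, the kinase gene rskn-1, the RNA export gene rae-1, the Wnt receptor gene mom-5, the endosome gene sand-1 and puf-3, with differences between -17.2 and -12.58 nt. Of the 10 maternal mRNAs, puf-3, oma-1 and nos-2 passed the test. The tail of puf-3 was 22.5 and 22.7 nt under caf-1 RNAi, against 33.6 and 36.8 nt under ccf-1 RNAi (-12.58 ± 2.097 nt). For oma-1 the difference was -11.5 ± 2.29 nt and for nos-2 -9.19 ± 1.66 nt. The remaining 7 differed by -12.4 nt (mex-5) to -4.73 nt (gld-1) with limma adjusted p from 0.053 to 0.32, and in 6 of them the caf-1 RNAi values lay below both ccf-1 RNAi values.

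Over the 81 genes the median difference was -12.9 nt against ccf-1 RNAi. For 78 of them a value against control RNAi was also tested, with a median of 0.05 nt, 0 longer and 6 shorter at an unadjusted p under 0.05. The caf-1 RNAi libraries enter both comparisons, so the 2 medians are not independent. Of the 81 genes 39 were in the list of GLD-2-dependent tails, of which 614 were tested here with a median of -7.86 nt and 424 shorter at an unadjusted p under 0.05. Over all 7015 genes tested the median was -4.45 nt, with 1.15% shorter at the adjusted test and 24.5% shorter at an unadjusted p under 0.05.

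By list, 4 of 27 oocyte and maternal genes were shorter at the adjusted test (list median -7.23 nt), as were 3 of 39 genes of polarity and division (-7.95 nt), beside 1.15% of all genes. These calls are among the 81, a count that was 0 on centred lengths and had 0 shorter genes with any 1 of the 4 libraries left out. The median tail of the oocyte list was 25.5 and 27.1 nt under caf-1 RNAi, against 32.1 and 36.9 nt under ccf-1 RNAi. Medians of eggshell genes (-7.71 nt), decapping and decay genes (-7.53 nt), the proteasome (-7.14 nt) and poly(A) polymerases and partners (-6.77 nt) were also below the -4.45 nt of all genes, with 0 members past the adjusted test. Among somatic lists the median was -0.27 nt for muscle, -0.23 nt for neurons, -0.73 nt for intestine and 0.27 nt for collagens. The 10 genes tested of the somatic gonad list had a median of -6.77 nt. That list holds genes not confined to somatic cells, such as inx-14 and inx-22, and the tissue behind these tails was not tested. In the bin of genes with the shortest tails in gld-2 worms the median tail was 26.85 and 25.9 nt under caf-1 RNAi, against 31.2 and 33.0 nt under ccf-1 RNAi. In the bin with the longest it was 44.85 and 41.65 nt under caf-1 RNAi, against 46.0 and 45.35 nt under ccf-1 RNAi.

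Read levels differed less clearly between these treatments. Of 9908 genes, edgeR called 0 (0%) and had 709 at an unadjusted p under 0.05 (7.16%), 334 higher (3.37%) and 375 lower (3.78%) under caf-1 RNAi. DESeq2 called 3 genes, all lower under caf-1 RNAi, with 624 at an unadjusted p under 0.05. The Wnt ligand gene mom-2 (V, 8356078 to 8357827; log2 difference -1.68) had 14.2 and 18.0 CPM under caf-1 RNAi, against 42.2 and 62.3 CPM under ccf-1 RNAi (DESeq2 adjusted p = 0.0035). The chitin synthase gene chs-1 (I, 7554997 to 7559452) had 13.7 and 17.0 CPM under caf-1 RNAi, against 41.3 and 71.8 CPM under ccf-1 RNAi. The nuclear Argonaute gene hrde-1 (III, 4172743 to 4176127), which carries inherited small-RNA silencing in the germ line, had 79.6 and 78.1 CPM under caf-1 RNAi, against 167 and 220.4 CPM under ccf-1 RNAi. The control RNAi libraries had 16.0 and 29.0 CPM for chs-1 and 16.8 and 17.8 CPM for mom-2. For hrde-1 they had 97.3 and 100 CPM, above both caf-1 RNAi libraries.

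In the same comparison eggshell genes had a median log2 difference of -0.91 with 7 of 13 lower at an unadjusted p under 0.05, and oocyte genes -0.44 with 8 of 28 lower, beside 3.78% lower and 3.37% higher over all genes. The 57 ribosomal protein genes lay at a median of 0.48, with 55 positive and 11 higher at an unadjusted p under 0.05. Their summed level was 284000 and 170600 CPM under caf-1 RNAi, against 178600 and 144000 CPM under ccf-1 RNAi, so caf-1 RNAi replicate 2 lay within the ccf-1 RNAi range.

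Set against the mean of the ccf-1, ccr-4, panl-2 and parn-1 RNAi groups (8 libraries), caf-1 RNAi had no gene past the adjusted test in either measure. For expression edgeR called 0 of 9908 genes (0%), with 534 at an unadjusted p under 0.05 (5.39%), 312 of them higher (3.15%) and 222 lower (2.24%), and DESeq2 called 0 with 426. For tails limma called 0 of 6927 genes (0%), with 450 genes at an unadjusted p under 0.05 (6.5%), 376 shorter (5.43%) and 74 longer (1.07%), and the median difference was -1.83 nt. Without caf-1 RNAi replicate 1, edgeR called 18 genes higher and 2 lower and limma 6 longer. No gene or list can therefore be called particular to caf-1 RNAi from these libraries.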

How the data were processed

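The authors' deposited tables give raw read counts and tailed-read counts per gene (whole numbers, not normalized) and the mean poly(A) tail length per gene and library in nucleotides, per the file headers. Bowtie, Bowtie2 2.2.4 and the ce10 build are named in the submitters' processing notes. Per the labels' protocols, fragments were size-selected before sequencing. Read counts were tested with edgeR 4.0.16 (TMM, quasi-likelihood, robust) and, as an alternative, DESeq2 1.42.0. Tail lengths were tested with limma 3.58.1 (empirical Bayes with trend), all in R 4.3.3. Each fit held the 12 gld-2 RNAi libraries of run 2, which share an estimate of spread. Tail tests required at least 5 tailed reads per value and a mean of 20. The Benjamini-Hochberg threshold was 0.05. The SE of a log2 difference is its size divided by the square root of F. Genes named against control RNAi were the 10 with the largest difference in each direction at an unadjusted p under 0.05, with groups that did not overlap, the same direction in every left-out fit and a mean of at least 20 CPM in the higher group, or 50 tailed reads in each library for tails. The members and lists were chosen with earlier results of these data known. The scripts were tested on simulated data. Alternatives covered filters, scaling, tools, blocks and left-out libraries.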

Additional observations from a re-analysis of the deposited data

Results flagged for a closer look

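The tail lengths of 81 genes passed the limma test of caf-1 RNAi minus ccf-1 RNAi itself, a direct contrast with no control RNAi baseline. Among them, ced-3 differed by -17.3 nt, wve-1 by -17.2 nt, mat-1 by -16.8 nt, spat-1 by -15.5 nt, rskn-1 by -15.3 nt and rae-1 by -15.1 nt. Further down, ndc-80 differed by -14.2 nt, mom-5 by -13.7 nt, sand-1 by -13.6 nt and puf-3 by -12.58 nt. The maternal mRNAs oma-1 and nos-2 differed by -11.5 and -9.19 nt. In all 12 genes both caf-1 RNAi libraries lay below both ccf-1 RNAi libraries. The genes were picked on this same contrast, so this describes them and is no further support.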

How the results depend on the processing

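The count of genes with shorter tails under caf-1 RNAi than under ccf-1 RNAi, 81, depended on the setting. It was 183 genes in either direction with at least 10 tailed reads per value, 871 with a mean of at least 100 tailed reads, 844 with weights by tailed reads and 590 with a variance trend on tailed reads, the last chosen after seeing the data. It was 0 with a lower filter, on lengths centred per library, on log2 lengths and in a fit of only the 4 libraries compared. With 1 library left out the calls were not firm either, as given above, and the median difference ranged from -5.73 to -3.28 nt. The cause of this dependence was not tested. For expression in the same contrast, DESeq2 called 3 genes and edgeR 22 with no filter on low counts, and 0 to 5 with 1 library left out. Against the 4 other target groups, edgeR called 29 genes with no filter, and with 1 library left out edgeR called 0 to 20 and limma 0 to 6. Against control RNAi, leaving out 1 library gave 0 to 5 genes for expression and 0 to 7 for tails, and the library median difference ranged from -0.37 nt (without caf-1 RNAi replicate 1) to 2.44 nt. Replicate numbers were not taken to pair the libraries, since not every pair of groups correlated above 0.1 in its deviations. For expression 11 of 15 pairs did (-0.15 to 0.39) and for tails 1 of 15, so a shared deviation in expression between some groups was seen. The correlations run over genes and do not register a shift of a whole library, such as that of median tails by replicate number. With the replicate block, 0 genes were called against control RNAi in either measure, and 104 against ccf-1 RNAi in tails, 72 of them among the 81. With 2 libraries a group, depth as low as 2.2 M reads and a median 95% interval of 8.28 nt, small tail differences were not detectable.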
